A study of Mus musculus with 12 samples.

Results

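The genes described here are YAP, 3 of the TEAD transcription factors it works through, and 6 genes around them: Ccn1, Ccn2, Amotl2, Lats2, Rassf2 and Rassf6. They were taken as every probe set of the deposited table whose only gene symbol in the platform annotation is one of these 10 names, which gave 23 of 45101 probe sets and 10 of 18193 genes. One further probe set, shared by Lats2 and Xpo4, was left out. All cells were TBV2, a wild-type embryonic stem cell line of mouse strain 129/SvP, grown on gelatin with leukemia inhibitory factor (LIF), free of feeder cells and of added non-essential amino acids, so that a single line stands for each group. Control ESCs received no addition for 5 days and the L-proline-induced cells (PiCs) received 500 µM L-proline for the same 5 days. Each group holds 2 biological replicates with 3 Affymetrix arrays each. The labels do not say what separates the biological replicates, or the 3 arrays of one. The p-values below therefore measure a spread that may be technical. Signals are on a log2 scale, on which a difference of 1 is a 2-fold change.

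YAP (Yap1) and its relative TAZ (Wwtr1) are transcriptional coactivators that bind no DNA themselves and act through the TEAD factors. In the Hippo pathway the MST kinases activate the LATS kinases, which phosphorylate YAP and TAZ and keep them out of the nucleus, while angiomotins hold them in the cytoplasm and at junctions. Ccn1, Ccn2, Amotl2 and Lats2 are textbook targets of YAP and TEAD, and the last pair also restrain YAP. In the early mouse embryo YAP and Tead4 direct the trophectoderm, and Yap1 and Tead2 are known as genes of embryonic stem cells. Arrays of messenger RNA show neither the phosphorylation of YAP nor its place in the cell.

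The comparison of proline with control arrays asks how the transcripts of this pathway differed after the amino acid was given. Both secreted CCN genes, Amotl2, Tead2 and both RASSF genes had higher signals in proline cells, and the mean signals of Yap1, Lats2, Tead1 and Tead4 lay within 0.39 of their control means on the log2 scale. By limma, taking an adjusted p (Benjamini-Hochberg, 18193 genes) under 0.05 as the threshold, 4 of the 10 genes rose (Ccn1, Tead2, Rassf2 and Rassf6), 0 fell and 6 did not pass. Of all genes, 3.03% rose and 1.34% fell. The 10 genes were chosen with earlier results of these data known, so the shares given here do not test a group set in advance. A log2 difference of at least 1 was measured in 6 of the 10, against 4.66% of all genes. These 6 include Rassf2 and Rassf6, whose control signals were dim and whose differences are uncertain in size. In 7 of the 10 every proline array lay above every control array, against 13.8% of all genes. The median log2 difference of the 10 genes was 1.05 and that of all genes -0.03. This median was 1.03, 1.05, 1.03 and 1.07 in the 4 pairs of a proline with a control replicate, which share their samples. Without any one of the 4 biological replicates, 0 of the 10 genes passed in limma, nor did any other gene, while 6 or 7 of the 10 had an unadjusted p under 0.05, as had 15.2% to 20.2% of all genes in these fits. With all replicates 7 of the 10 and 22.1% of all genes had one.

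**Figure D1:**
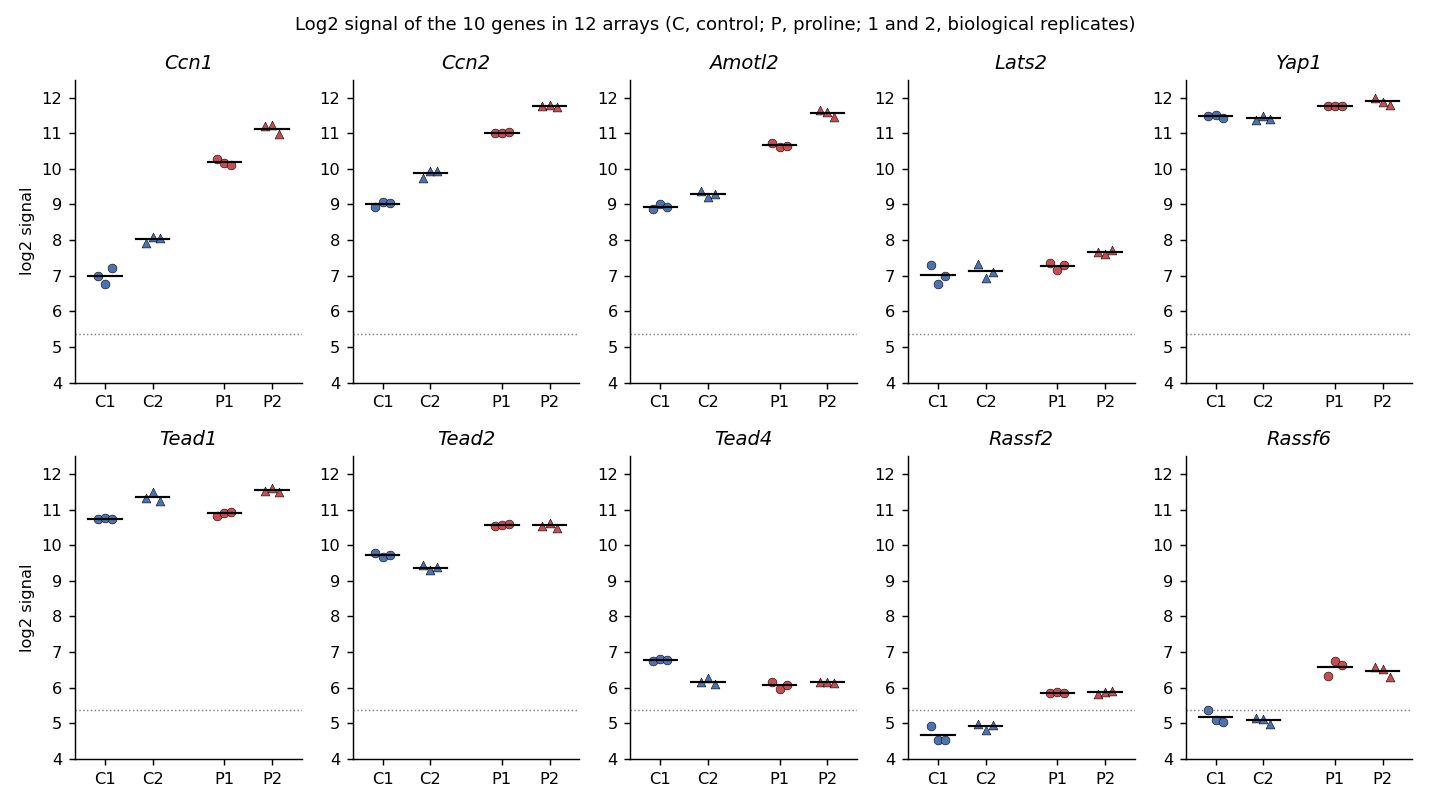
Log2 signal (vertical axes) of the 10 genes in the 12 arrays, by group and biological replicate (C1 and C2 control, P1 and P2 proline). Points are arrays, bars are the means of 3 arrays, and the dotted line is the 40th percentile of all probe sets, 5.36. The 6 proline arrays lie above the 6 control arrays in Ccn1, Ccn2, Amotl2, Yap1, Tead2, Rassf2 and Rassf6.

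Arrays of one biological replicate correlated at r = 0.996 to 0.998 over probe sets, those of the other replicate of a group at 0.985 to 0.989, and control with proline arrays at 0.962 to 0.981. Replicate 2 differed from replicate 1 in the same direction in both groups for measures of labelling and RNA. The beta-actin signal at the 5' end minus that at the 3' end was 0.40 higher in control 2 and 0.42 higher in proline 2 than in replicate 1 of its group, and 18S ribosomal RNA was lower by a log2 difference of -0.70 and -1.39. Proline minus control was 0.25 and -1.35 for these measures. Their part in the differences below was not tested.

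Ccn1 encodes a secreted matrix protein, long known as CYR61, that is used as a readout of YAP and TEAD. Its 3 arrays read 6.99, 6.77 and 7.22 in control 1 and 7.92, 8.09 and 8.07 in control 2. They read 10.28, 10.17 and 10.12 in proline 1 and 11.19, 11.22 and 10.97 in proline 2. The groups did not overlap, and replicate 2 was the higher one in both, by 1.04 in controls and by 0.94 after proline. From 7.51 ± 0.73 to 10.66 ± 0.66 (SD, n = 2 biological replicates), Ccn1 rose by 3.15 ± 0.47 (log2, moderated SE), or 8.87-fold, with an adjusted p of 0.0442 in limma. Its difference between a proline and a control replicate ran from 2.16 to 4.13.

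All 4 probe sets of Ccn1 were higher after proline, by 2.80 to 3.39. The one used above, whose suffix _x_at marks probes that can also match other sequences, and 1438133_a_at shared the gap between replicates: 1438133_a_at read 5.32 and 6.41 in controls and 8.78 and 9.75 after proline. In 1457823_at the replicates lay close together, at 5.38 and 5.45 in controls and 8.24 and 8.19 after proline. Tested by itself over all 45101 probe sets, 1457823_at was the only one of the 23 past the threshold (2.80 ± 0.11, adjusted p = 0.0494), where 0.0998% of all probe sets passed. Its annotation names the same transcript as 1442340_x_at, so that these are not independent measures. Control signals of 1457823_at (5.42) and 1442340_x_at (5.40) lay close to the 40th percentile of probe sets, 5.36, where signal and background cannot be separated by these values.

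Ccn2, or connective tissue growth factor, is the second CCN gene that YAP and TEAD are known to drive. Its single probe set read 8.92, 9.06 and 9.05 in control 1 and 9.74, 9.94 and 9.94 in control 2, then 11.01, 11.01 and 11.02 in proline 1 and 11.77, 11.78 and 11.73 in proline 2. All proline arrays were above all control arrays, and replicate 2 was again the higher one, by 0.86 and 0.75. The log2 difference of 1.95 ± 0.39 (95% interval 0.91 to 2.98) had an adjusted p of 0.0745 and did not pass. Of the 6 CCN genes measured, Ccn1 rose, 0 fell and 5 did not pass, where 3.03% of all genes rose. The 4 CCN genes other than Ccn1 and Ccn2 had a median log2 difference of -0.05, with Ccn5 at -0.17 ± 0.12 (adjusted p = 0.489). Of these, Ccn3, Ccn5 and Ccn6 were under the 40th percentile of all probe sets, 5.36, in both groups, so that their values say little of a difference. With dim genes left out the median of the CCN list moved from 0.13 to 1.95.

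Amotl2 encodes an angiomotin, a junction protein that binds YAP and is itself a target gene. Its control arrays read 8.86, 9.01 and 8.93 in replicate 1 and 9.38, 9.22 and 9.28 in replicate 2. Its proline arrays read 10.73, 10.60 and 10.65 in replicate 1 and 11.64, 11.59 and 11.45 in replicate 2. The groups were apart in every array, with proline 2 the highest by 0.90 over proline 1. The log2 difference was 1.99 ± 0.34 (95% interval 1.10 to 2.88), with an adjusted p of 0.0545 that did not pass. It passed when genes of low signal were left out before the adjustment (adjusted p = 0.0366).

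**Figure D2:**
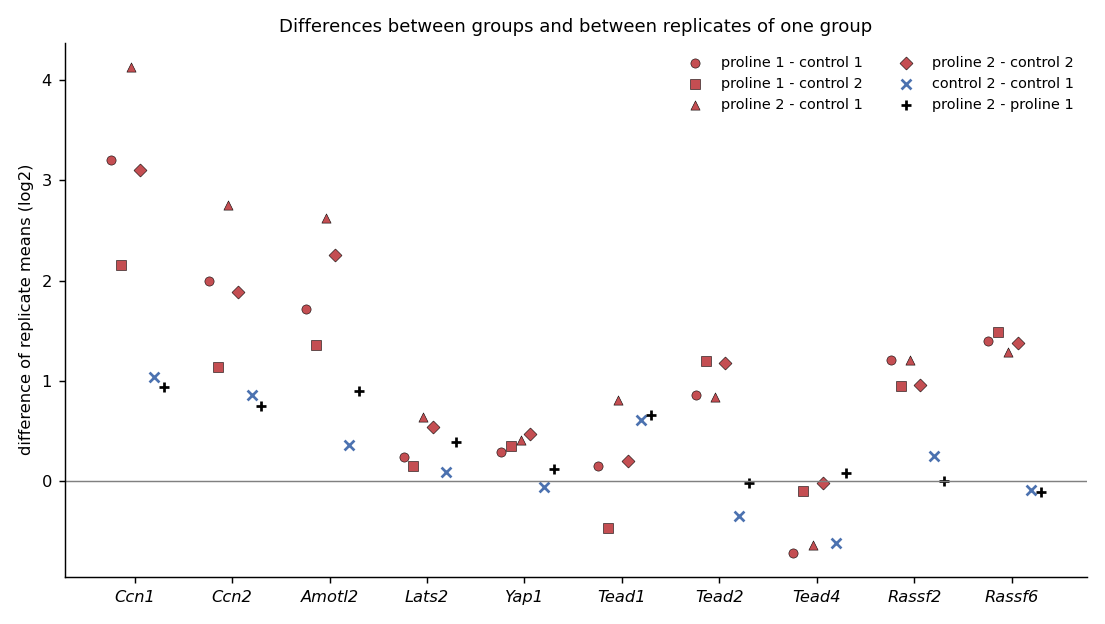
Differences of replicate means (log2, vertical axis) for the 10 genes: red symbols are the 4 proline minus control pairs, and the cross and plus are replicate 2 minus replicate 1 within controls and within proline cells. In Ccn1, Ccn2 and Amotl2 replicate 2 is the higher one in both groups, whereas the 4 pairs of Rassf6 run from 1.29 to 1.49 with replicate differences of -0.09 and -0.11.

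Promoter sequences from RefSeq (GRCm38.p6) were at hand for 7 of the 10 genes, in 8 windows, and are shown because TEAD factors are known to bind the letters GGAATG. The 250 bases before each start site were searched for GGAATG on both strands, which on the printed strand reads GGAATG or CATTCC. In 4 of the 8 windows, those of Ccn1, Amotl2, Yap1 and Rassf2, the motif occurred once, and in 12.6% of all 32851 windows of that length it occurred at least once. It was not among these letters in the windows of Tead2, Rassf6 and Lats2. The Ccn1 window is chr3:145649986-145650235 on the minus strand, printed 5' to 3' up to the base before the start, with the motif in capitals, 103 to 98 bases before the start.
Ccn1: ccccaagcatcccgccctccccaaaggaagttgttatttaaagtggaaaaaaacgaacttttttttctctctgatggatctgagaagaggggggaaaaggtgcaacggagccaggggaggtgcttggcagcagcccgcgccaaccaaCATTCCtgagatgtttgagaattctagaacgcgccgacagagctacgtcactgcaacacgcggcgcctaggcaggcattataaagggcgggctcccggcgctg
For the other genes with the motif, 30 bases around it are given. The Amotl2 stretch is chr9:102717727-102717756 on the plus strand, 65 to 60 bases before its start and inside the span annotated for the gene. The Yap1 stretch is chr9:8004720-8004749 (minus strand, 141 to 136 bases before) and that of Rassf2 chr2:132030520-132030549 (minus strand, 213 to 208 bases before).
Amotl2: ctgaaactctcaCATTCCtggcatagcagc
Yap1: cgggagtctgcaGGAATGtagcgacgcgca
Rassf2: aggaggaggtgaGGAATGgacaaagaaact
A match describes letters and is not evidence of binding. Of the 4 genes with it, Ccn1 and Rassf2 rose, and of those without it Tead2 and Rassf6 rose.

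Yap1 read 11.48, 11.52 and 11.43 in control 1 and 11.36, 11.47 and 11.41 in control 2, and 11.76, 11.77 and 11.77 in proline 1 and 11.99, 11.88 and 11.80 in proline 2. Every proline array was above every control array by a narrow margin. The log2 difference of 0.38 ± 0.12, a 1.30-fold difference, had a 95% interval of 0.07 to 0.69 and an adjusted p of 0.163, and did not pass. In the second probe set of Yap1 the difference was 0.46 ± 0.30 and the arrays of the groups overlapped.

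Tead2, the TEAD family member best known from early embryos and neural progenitors, read 9.77, 9.66 and 9.71 in control 1 and 9.43, 9.29 and 9.40 in control 2. After proline it read 10.55, 10.57 and 10.60 in replicate 1 and 10.55, 10.63 and 10.48 in replicate 2. The proline replicates agreed to within 0.02, and here control 2 was the lower control, by a log2 difference of -0.34. Tead2 rose by 1.02 ± 0.16, or 2.03-fold (adjusted p = 0.0456). With genes summarized by the median over their probe sets its adjusted p was 0.0591 and it did not pass.

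Tead1, a broadly expressed TEAD factor, read 10.72, 10.75 and 10.73 in control 1, 11.31, 11.48 and 11.24 in control 2, 10.83, 10.90 and 10.93 in proline 1 and 11.53, 11.60 and 11.50 in proline 2. Replicate number separated its arrays more than proline did: replicate 2 was higher by 0.61 in controls and 0.66 after proline, and proline minus control was 0.18 ± 0.31 (95% interval -0.65 to 1.01, adjusted p = 0.821). The 2 probe sets of Tead1 pointed in opposite directions. In 1423434_at, proline minus control was -0.87 ± 0.22 with no overlap between groups (7.95 and 7.44 in controls, 6.96 and 6.70 after proline), which did not pass by itself (adjusted p = 0.160). No direction is therefore given for Tead1.

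Tead4, the TEAD factor of the trophectoderm, read 6.74, 6.81 and 6.78 in control 1, 6.15, 6.27 and 6.09 in control 2, 6.17, 5.95 and 6.07 in proline 1 and 6.15, 6.15 and 6.14 in proline 2. Control 1 stood above the other 3 replicates, which overlapped. Its log2 difference of -0.37 ± 0.23 (95% interval -0.97 to 0.24) had an adjusted p of 0.451, and the other probe set gave -0.34 ± 0.28. Between the replicates of proline and control 2 the difference was -0.10 and -0.02.

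**Figure D3:**
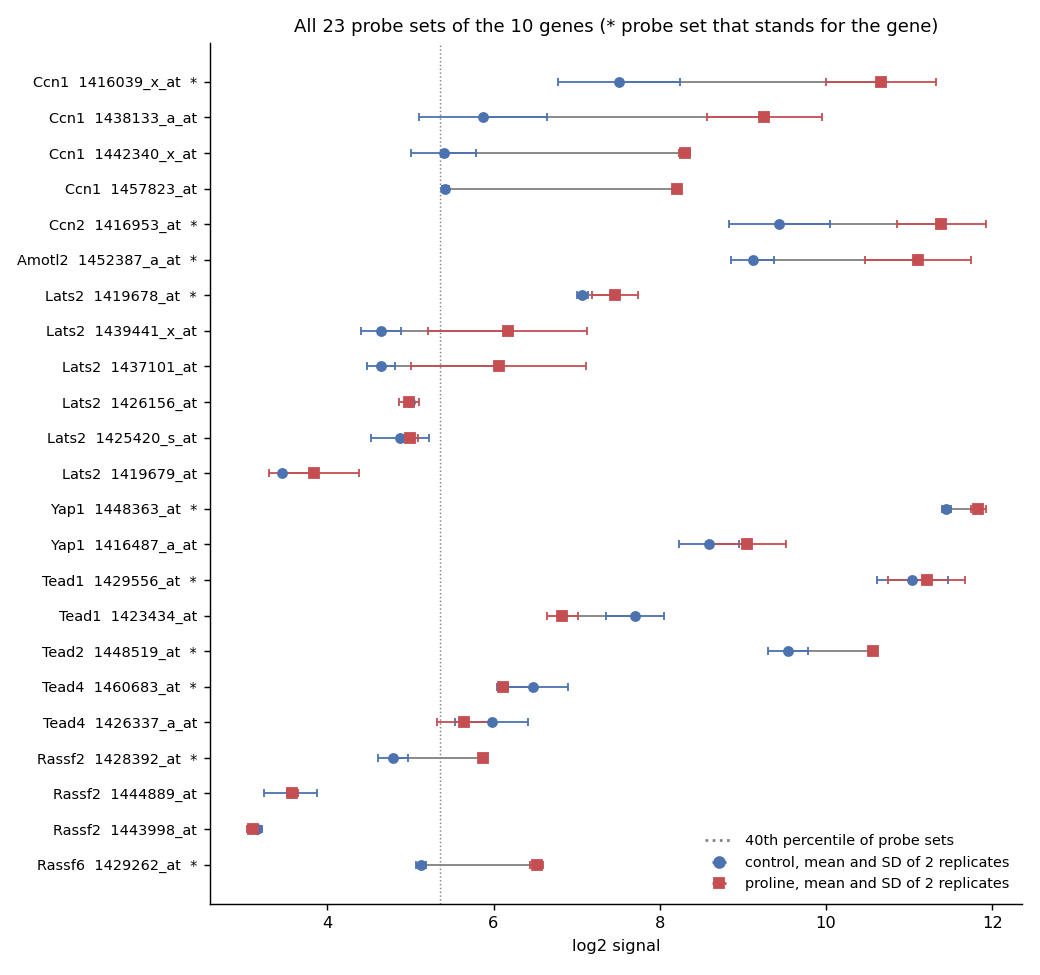
All 23 probe sets of the 10 genes, with the log2 signal on the horizontal axis; circles are control and squares proline means with the SD of 2 biological replicates, and an asterisk marks the probe set that stands for the gene. The 4 probe sets of Ccn1 shift by 2.80 to 3.39, those of Tead1 point in opposite directions, and 2 of the 3 of Rassf2 lie at low signal with no shift.

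Lats2 encodes one of the kinases that phosphorylate YAP. Its brightest probe set read 7.31, 6.77 and 6.99 in control 1, 7.33, 6.93 and 7.10 in control 2, 7.36, 7.15 and 7.29 in proline 1 and 7.67, 7.61 and 7.71 in proline 2. Control and proline 1 arrays overlapped and proline 2 lay above them. The log2 difference of 0.39 ± 0.17 (95% interval -0.06 to 0.85) had an adjusted p of 0.287. Of its 6 probe sets, 5 were above 0 and 1 at -0.02. Larger differences, 1.53 ± 0.49 in 1439441_x_at and 1.42 ± 0.52 in 1437101_at, came mostly from proline 2, at 6.86 and 6.81 against 5.49 and 5.32 in proline 1, and neither passed. The remaining probe sets of Lats2 stayed under the 40th percentile in both groups.

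Rassf2 and Rassf6 encode scaffold proteins of the RASSF family, and these 2 proteins carry a SARAH domain and can bind the MST kinases. Rassf6 read 5.37, 5.10 and 5.05 in control 1, 5.15, 5.11 and 4.99 in control 2, 6.34, 6.74 and 6.65 in proline 1 and 6.58, 6.52 and 6.29 in proline 2. The groups did not overlap and replicate 2 differed from replicate 1 by -0.09 in controls and -0.11 after proline. Rassf6 rose by 1.39 ± 0.12 (adjusted p = 0.0246). Its control mean, 5.13, is under the 40th percentile, where signal and background cannot be separated, so that the size of the difference is uncertain.

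Rassf2 read 4.92, 4.53 and 4.53 in control 1, 4.97, 4.82 and 4.95 in control 2, 5.86, 5.88 and 5.86 in proline 1 and 5.82, 5.88 and 5.90 in proline 2. It rose by 1.08 ± 0.14 (adjusted p = 0.0363) from a control mean of 4.79, also under the 40th percentile and with the same uncertainty in size. This rests on 1 of 3 probe sets: 1444889_at measured 0.02 ± 0.19 and 1443998_at -0.05 ± 0.12, with group means of 3.11 to 3.58. By the median over its probe sets Rassf2 measured 0.02.

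**Figure D4:**
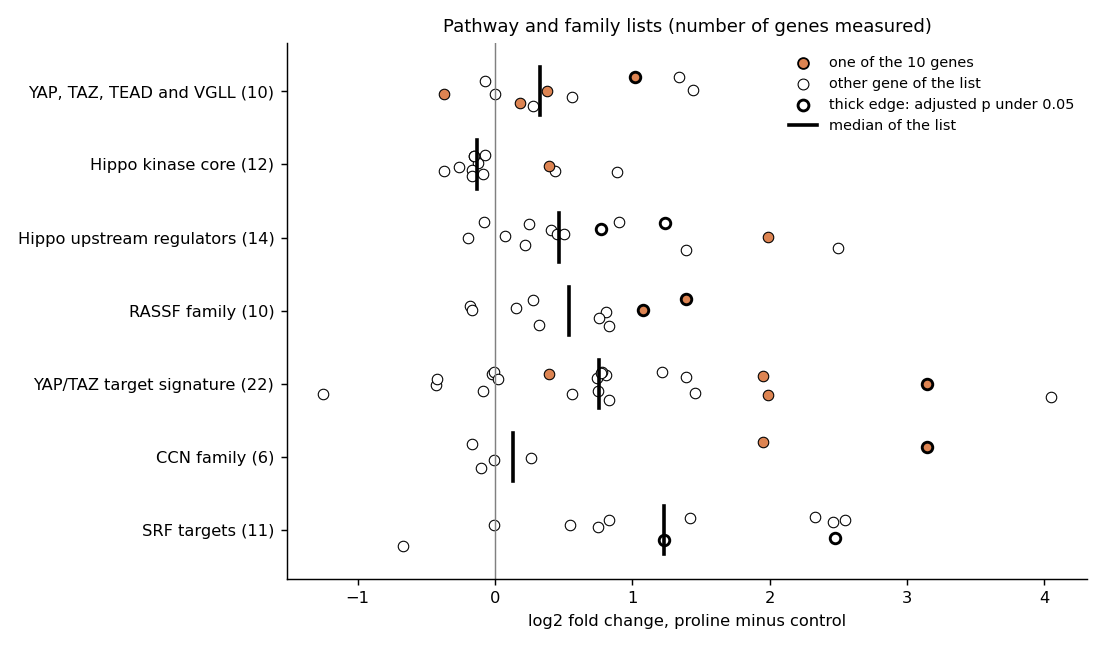
Log2 difference, proline minus control (horizontal axis), of every measured gene in 7 pathway and family lists (number measured in parentheses); filled points are among the 10 genes, a thick edge marks an adjusted p under 0.05 and the black bar is the list median. The Hippo kinase core centres on -0.13 while the YAP/TAZ target signature centres on 0.76, with points from -1.25 to 4.05.

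Other genes of the pathway were taken from lists of its components and known targets, also chosen with earlier results of these data known. Among 10 genes for YAP, TAZ, TEAD and the TEAD cofactors of the VGLL family, Tead2 rose, 0 fell and 9 did not pass, with a median of 0.33. The share of all genes that rose was 3.03%. TAZ (Wwtr1) measured 7.98 and 8.35 in controls and 9.17 and 9.84 after proline, without overlap of arrays, a difference of 1.34 ± 0.28 (adjusted p = 0.0776). Tead3 measured 0.56 ± 0.15 (adjusted p = 0.118), with arrays that overlapped.

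The Hippo kinase core, with MST, LATS, MOB1, TAOK and NDR kinase genes, held 0 genes past the threshold by limma among 12 measured, and 2 had an unadjusted p under 0.05, which is no larger a share than the 22.1% of all genes. The median was -0.13 (-0.05 without control replicate 2). Of the 12 genes 9 were below 0, whereas 43.9% of all genes were above 0. Taok3 measured 0.89 ± 0.22 (adjusted p = 0.107) and Stk38l -0.37 ± 0.12 (adjusted p = 0.161). The other probe sets of Stk38l went the other way, at 0.18 ± 0.15 and 0.30 ± 0.35.

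Of 14 upstream regulators measured, Wwc2 and Limd1 rose, 0 fell and 12 did not pass, with a median of 0.47. Among all genes 3.03% rose and 1.34% fell. Above 0 were 12 of the 14, against 43.9% of all genes. Wwc2, a relative of the LATS activator KIBRA, rose by 1.24 ± 0.16 (adjusted p = 0.0362), and its 5 probe sets ran from 0.94 to 1.59. Limd1, an Ajuba-family LIM protein that binds LATS, rose by 0.77 ± 0.13 (adjusted p = 0.0498). After quantile normalization, and by the median over probe sets, 1 gene of this list passed, where 4.11% and 1.93% of all genes did. Without proline replicate 1 the list's median was 0.75. Angiomotin itself (Amot) measured 6.54 and 8.04 in controls and 9.38 and 10.19 after proline, a difference of 2.50 ± 0.57 (adjusted p = 0.0939), while its other probe sets gave 0.62 and 0.17.

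In the RASSF family, Rassf2 and Rassf6 rose, 0 fell and 8 of 10 did not pass, with a median of 0.54. Both rises are among the 10 genes of this report, and 3.03% of all genes rose. The 8 other RASSF genes had a median of 0.30, with 6 above 0, against 43.9% of all genes. Rassf8 measured 0.76 ± 0.18 (adjusted p = 0.0965) and Rassf3 0.81 ± 0.23 (adjusted p = 0.142). The family's median was 0.29 by the median over probe sets and 0.35 without proline replicate 1.

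A list of 22 known YAP/TAZ target genes, all measured, held 1 rise (Ccn1), 0 falls and 21 genes that did not pass. With dim genes left out 4 of the list passed, where 7.13% of all genes did, against 4.36% in the main fit. By the median over probe sets 2 of the list and 1.93% of all genes passed. Its median was 0.76, and 0.75 over the 18 that are not among the 10 genes, against -0.03 for all genes. Above 0 were 16 of the 22, against 43.9% of all genes. In 10 of the 22 every proline array lay above every control array, against 13.8% of all genes. In 1, Myof, every proline array lay below (-1.25 ± 0.32, adjusted p = 0.118 by limma, named after its value was seen), as in 1967 of all 18193 genes. The other probe set of Myof measured -0.19 ± 0.12. Igfbp3, a secreted binding protein of insulin-like growth factors, measured 6.19 and 7.48 in controls and 10.12 and 11.65 after proline, a difference of 4.05 ± 0.67 (adjusted p = 0.0519). The higher values lay mostly in proline 2. The list's median was 0.23 without proline replicate 2 and 1.19 without proline replicate 1, and proline 2 minus proline 1 had a median of 0.75 over the list.

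Ccn1 is also known as a target of serum response factor (SRF), which reads the state of actin. Of 11 SRF target genes measured, 2 rose by limma, Zyx (2.48 ± 0.32, adjusted p = 0.0363) and Tpm2 (1.23 ± 0.19, adjusted p = 0.0479). Of this list 0 fell and 9 did not pass, where 3.03% of all genes rose. Zyx and Tpm2 did not both pass after quantile normalization or by the median over probe sets. In each of these settings 1 gene of the list passed, where 4.11% and 1.93% of all genes did. The second probe set of Zyx, whose suffix is _x_at, measured 0.63 ± 0.12. The median of the list was 1.23, with 9 of the 11 above 0, against 43.9% of all genes. Myl9 measured 1.42 ± 0.28 (adjusted p = 0.0712) and Cnn1 2.55 ± 0.60 (adjusted p = 0.0992). As in Ccn1 and Ccn2, replicate 2 was the higher one in both groups, by a list median of 0.74 in controls and 0.35 after proline.

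Markers of embryonic stem cells were read in both groups. Pou5f1 (Oct4) read 13.44 ± 0.17 in controls and 13.15 ± 0.40 after proline (SD, n = 2), and all 10 markers were above the 40th percentile. All 10 differences were below 0, with a median of -0.54, whereas 43.9% of all genes were above 0. In 6 of the 10 every proline array lay below every control array, as in 1967 of all 18193 genes. By limma 1.34% of all genes fell. Of the 10 markers, Esrrb (-1.49 ± 0.13) and Zfp42 (-1.39 ± 0.14) fell, 0 rose and 8 did not pass. Among these 8 were Klf4 (-2.41 ± 0.41, adjusted p = 0.0553) and Tfcp2l1 (-1.83 ± 0.34, adjusted p = 0.0632). The other probe sets of Tfcp2l1 measured -0.23 ± 0.13 and -0.03 ± 0.11.

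Since YAP and Tead4 serve the trophectoderm, its markers were read beside them. Of 9 trophoblast markers 0 passed by limma (3 had an unadjusted p under 0.05, against 22.1% of all genes), and Gata3, Elf5 and Tpbpa were under the 40th percentile in both groups. The smallest p belonged to Tfap2c (-0.69 ± 0.14, adjusted p = 0.0731) and Ascl2 (-0.59 ± 0.17, adjusted p = 0.141). Of the 9 markers 6 were above 0, against 43.9% of all genes, with a list median of 0.09. Cdx2 measured 0.65 ± 0.26 (adjusted p = 0.249) and Gata3 0.86 ± 0.31 (adjusted p = 0.213) in limma, both with arrays that overlapped. The summed linear signal of the 9 markers was 1703 and 4029 in controls and 2839 and 8450 after proline. Most of its spread lay in the keratin genes Krt8 and Krt18, set apart after their values were seen, which are also expressed by other epithelial cells and summed to 257.9 and 2371 in controls and 1807 and 7332 after proline. The other 7 markers summed to 1445 and 1658 in controls and 1032 and 1119 after proline. This sum lay mostly in Tfap2c, the brightest of the 7, and says little of the rest. On the log2 scale Tfap2c read 10.17 and 10.41 in controls and 9.55 and 9.65 after proline. The part of the keratin signal's source in the CCN signals was not tested, and in bulk RNA a change in the share of cells of a type cannot be told apart from a change in RNA per cell.

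Fibroblasts express both CCN genes strongly, and 0 of 8 fibroblast markers passed by limma (1 had an unadjusted p under 0.05, against 22.1% of all genes). Their summed signal was 833.4 and 549.1 in controls and 551.1 and 779.7 after proline, ranges that overlapped. This sum lay mostly in Thy1 and Col1a2, the brightest of the 8, and says little of the rest. The median of the list was -0.06. Replicate 2 minus replicate 1 had a list median of -0.17 in controls and 0.45 after proline. A part of fibroblasts in the CCN signals was not tested. Of the 8 markers 5 were below 0, the lowest Pdgfrb (-0.54 ± 0.52), whereas 43.9% of all genes were above 0. Dcn measured 0.77 ± 0.16 (adjusted p = 0.0769) in limma and -0.10 ± 0.12 in its other probe set. Col3a1 measured 0.47 ± 0.27 (adjusted p = 0.410), and Col3a1, Lum and Postn were under the 40th percentile in both groups. Among 9 markers of extraembryonic endoderm, Lama1 fell (-1.45 ± 0.22), 0 rose and 8 did not pass, where 1.34% of all genes fell. Dab2 measured 1.68 ± 0.28 (adjusted p = 0.0545 by limma) and Gata4 0.24 ± 0.13. The summed signal of the 9 ran from 650.7 to 822.5 in controls and from 724.2 to 928.8 after proline. Of 5 endothelial markers, Pecam1, which embryonic stem cells also express, fell (-1.37 ± 0.17), 0 rose and 4 did not pass. Here too the share of all genes that fell was 1.34%. Tek measured -0.95 ± 0.17 (adjusted p = 0.0598 by limma) and Kdr -0.37 ± 0.15. The summed signal of the 5 was 590.2 and 594.5 in controls and 329.0 and 314.3 after proline.

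For each of the 10 genes the genes of most like pattern were found by the root mean square difference over the 12 arrays of log2 signals, each centred on its own control mean. For Ccn1 these were the growth hormone receptor gene Ghr (0.214), the semaphorin Sema3c (0.221) and the sulfotransferase gene Chst15 (0.246). For Ccn2 they were Bst2 (0.126), Dock11 (0.130) and Rnf128 (0.145), and for Amotl2 Cdcp1 (0.145), Radil (0.158) and Pdlim2 (0.170). Tead2 was closest to Uckl1 (0.0860), Itm2c (0.0884) and Pea15a (0.0924). Rassf6 was closest to the kinesin light chain gene Klc3 (0.0990), Epdr1 (0.119) and Smo (0.139), the signal transducer of the Hedgehog pathway, and Rassf2 to Sh2d3c (0.0737), Igdcc3 (0.0935) and Mapk13 (0.103). Yap1 ran closest to Chmp4b (0.0526), Tram1 (0.0545) and Hpf1 (0.0545), Tead1 to Thoc2l (0.0817), Pank3 (0.0893) and Zmat3 (0.0997), Tead4 to Tmem51 (0.0613), Pomt1 (0.0800) and the telomerase gene Tert (0.0869), and Lats2 to Slamf9 (0.107), Egfr (0.122) and Heph (0.124). These distances depend on the size of the difference as well as on its shape, over arrays that share 4 biological replicates.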

How the data were processed

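RNA was labelled with biotin, per the labels' protocols, and hybridized to 12 arrays. The deposited table holds 1 log2 signal per probe set and array, from 2.1 to 14.8, with array medians of 5.99 to 6.03. MAS5 and RMA are named, per the submitters' processing notes, and which of them made the table is not given in the sources used here. Gene names came from the platform annotation: 34945 had 1 symbol, 932 several (not named) and 9160 none here. Gene IDs changed 0 symbols through a RefSeq table. Where a gene had several probe sets, the one of highest mean over the 12 arrays stood for it. The 3 arrays of a biological replicate were averaged, and the 2 means per group entered limma 3.58.1 under R 4.3.3 (two-sided, Benjamini-Hochberg over 18193 genes, 2 residual and 2.60 prior degrees of freedom). The procedure was run on simulated data, where the sign and the size of planted changes were checked. The planted changes were larger than those measured in Tead2, Rassf2 and Rassf6. An exact permutation test of the 2 means per group cannot give a p under 0.333. For arrays, the number of replicates limits the precision. Detection calls were not used here.

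The members and gene lists were chosen with earlier results of these data known. Named beside the 10 genes were those past the threshold in each list (up to 4), the 2 of smallest p that did not pass, and the 3 genes of most like pattern. Outside this rule, Pou5f1, Cdx2, Gata3, Pdgfrb, Thy1, Col1a2, Myof, Krt8 and Krt18 were also named, as were list genes of low signal. Other settings tried were a filter at the 40th percentile, quantile normalization, median centring, the median over probe sets, probe sets by themselves, an intensity trend, the replicate number as a block, the 12 arrays with a random block, and leaving out each biological replicate. Replicate numbers are shared between groups, but no label says that they pair cultures, and the replicate 2 minus replicate 1 differences of both groups had r = 0.338 over genes, from 2 pairs. Figures were drawn with matplotlib 3.10.9.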

Additional observations from a re-analysis of the deposited data

How the results depend on the processing

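The count of 4 of the 10 genes past the threshold was also 4 after quantile normalization, median centring and with dim genes left out, where Amotl2 passed and Rassf2 was not tested. It was 6 with an intensity trend. It was 2 by the median over probe sets (Ccn1 and Rassf6), 1 of 23 with every probe set by itself, and 7 with the 12 arrays in a random block. In the random block fit arrays enter singly, with a correlation shared by all genes, while each group holds 2 biological replicates. Its p-values may therefore be too small. The count over all genes, 794 of 18193, became 910 of 12762 with dim genes left out and 937 of 18193 with an intensity trend. It became 351 by the median over probe sets and 3987 with the random block, and 45 of 45101 probe sets passed by themselves. With the replicate number as a replicate block 2039 genes and 6 of the 10 passed, among them Ccn2 (adjusted p = 0.00720) and Amotl2 (adjusted p = 0.00909), and 9 of the 22 YAP/TAZ targets. Leaving out 1 biological replicate gave 0 to 0 of all genes and 0 to 0 of the 10 past the threshold. Such fits have 1 sample in a group, which is assumed to vary like the other. The differences of Ccn1 then ran from 2.63 to 3.67, of Ccn2 from 1.51 to 2.38, of Amotl2 from 1.54 to 2.44, of Tead2 from 0.85 to 1.19 and of Rassf6 from 1.33 to 1.45. Tead1 changed sign to -0.34 by the median over probe sets and ran from -0.15 to 0.50 when a replicate was left out. The other 9 genes kept their direction in the alternatives with 1 value per gene in which they were tested; among single probe sets, 1 of Lats2 (-0.02) and 1 of Rassf2 (-0.05) were below 0. Why values moved was not tested.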
